A study of Mus musculus with 4 samples.

Results

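The genes Rgs2, Rgs4, Rgs16, Rasd1, Rrad, Gem and Rheb, which encode regulators of G protein signalling and Ras-related small GTPases, were followed in the dentate gyrus (DG) of mice given electroconvulsive stimulation (ECS). They were taken by symbol, as every probe set annotated to 1 of these 7 names alone, which gave 12 probe sets of 22626 and 7 genes of 12393. The DG of male C57Bl/6 mice was read on 4 Affymetrix arrays, 1 per group, each with the pooled RNA of 3 mice. The groups were a single ECS (dissected at 1 h), 11 ECS (1 h after the last), 10 ECS (48 h after the last) and 1 session of sham handling without current (1 h). By the study's description the 10 ECS mice also had a sham session 1 h before dissection, and by its methods ECS was given under isoflurane with sham mice handled alike. Each ECS lasted 1 s, with a bilateral current of 25 mA in pulses of 0.5 ms, and repeated groups had 4 sessions a week. By the study's methods mice were of the C57BL/6J or C57BL/6N substrain and were purchased at 8 weeks, before habituation and treatment, so they were older at dissection. Groups follow the sample titles, since the free-text descriptions of 3 samples name another treatment.

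Heterotrimeric G proteins are switched on by receptors and off by hydrolysis of GTP, and RGS proteins speed the second step by acting on the alpha subunit. Small GTPases of the Ras superfamily use the same switch as single subunits. Several genes of both kinds are transcribed within an hour of strong neuronal activity, and in granule cells (GCs), the principal neurons of the DG, a seizure is a strong stimulus of that kind. Rgs2 prefers alpha subunits of the Gq class, whereas Rgs4 and Rgs16 act on the Gi and Gq classes. Rasd1 is a Ras-like GTPase first found as a dexamethasone-induced gene, Rrad and Gem are RGK proteins that restrain voltage-gated calcium channels, and Rheb, first found in rat brain as a seizure-induced gene, activates the kinase complex mTORC1.

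Promoter sequence from RefSeq (GRCm38.p6) was on hand for 4 of the 7 genes, Rgs2, Rgs4, Rgs16 and Rheb. The stretches of Rgs2 and Rgs4 are shown because these genes passed 2-fold in both acute responses, and that of Rgs16 because it belongs to the same RGS subfamily and stayed under 2-fold. Each runs 5′ to 3′ on the gene's strand over the 250 bases before the annotated start. Capitals mark TGACG, the core of the cAMP response element, on either strand (CGTCA where it lies on the other strand; it is also part of the full element TGACGTCA), and the TATA box letters TATAAA.
Rgs2, chr1:144004150-144004399, minus strand: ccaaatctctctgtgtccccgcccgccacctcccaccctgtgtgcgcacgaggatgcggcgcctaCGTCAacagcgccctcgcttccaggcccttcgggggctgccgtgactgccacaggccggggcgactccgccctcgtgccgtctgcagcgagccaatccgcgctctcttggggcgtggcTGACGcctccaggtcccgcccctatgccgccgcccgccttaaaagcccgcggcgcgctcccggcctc
Rgs4, chr1:169747643-169747892, minus strand: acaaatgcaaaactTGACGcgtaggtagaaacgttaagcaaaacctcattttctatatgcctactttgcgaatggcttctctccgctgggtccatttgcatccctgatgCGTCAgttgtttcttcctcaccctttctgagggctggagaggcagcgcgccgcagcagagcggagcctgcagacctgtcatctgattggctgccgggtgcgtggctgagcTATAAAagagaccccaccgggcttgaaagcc
Rgs16, chr1:153740103-153740352, plus strand: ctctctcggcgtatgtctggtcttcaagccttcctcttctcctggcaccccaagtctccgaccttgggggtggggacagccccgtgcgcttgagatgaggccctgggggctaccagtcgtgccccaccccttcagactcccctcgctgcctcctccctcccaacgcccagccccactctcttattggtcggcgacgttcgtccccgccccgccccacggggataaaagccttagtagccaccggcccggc
In Rgs2 the TGACG matches began at positions -185 and -67 from the start, and in Rgs4 at -236 and -141, with TATAAA at -31. Rheb held 1 match, at -247, and Rgs16 held none. Over all 32851 promoter windows of 300 bases (250 before and 50 after the start), 20.8% held TGACG and 13.6% TATAAA on at least 1 strand. The full element TGACGTCA (1.79% of windows), the CArG box (1.63%), the AP-1 site TGANTCA (7.81%), the EGR sites GCGGGGGCG (2.91%) and GCGTGGGCG (0.612%), and the glucocorticoid response element (0.475%) were in none of the 4 windows. These are matches of letters and not measured binding sites.

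Values below are MAS5 signals on a linear scale, and log2 ratios between 2 arrays. Signals under 12 units, the 25th percentile of all signals, were taken as 12, so a fold against such an array is a minimum, given with the words at least. With 1 array per group there was no replicate and no test. The error at hand was how far probe sets of 1 gene differed, with a pooled SD of 0.29 on the log2 scale for single ECS over sham, 0.27 for 11 ECS over 10 ECS, 0.29 for 10 ECS over sham and 0.28 for 11 ECS over single ECS. It does not cover the spread between mice or arrays. The median log2 ratio of all genes was -0.24, -0.11, -0.14 and 0.00 in the same 4 comparisons, so the first 3 have a baseline below 0.

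The activity gene Fos had 1833 units after a single ECS against 139 in sham, and 937 after 11 ECS against 82.8 after 10 ECS, in the direction the labels give. All 4 activity genes listed, Fos, Arc, Egr1 and Nr4a1, were at least 2-fold higher after both stimuli. They read lower after 10 ECS than in sham, at log2 ratios between -0.75 and -0.88. Array medians ran between 56.3 and 69.3 units and 73.9% to 76.7% of probe sets were above 12 units. Of 8 GC marker genes, 6 were on the array and none was below 12 units on all arrays. The tissue also held markers of interneurons, astrocytes, oligodendrocytes, microglia and vessels. In bulk tissue, fewer cells of a type and less RNA per cell cannot be told apart.

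After a single ECS all 12 probe sets of the 7 genes read higher than in sham, and 4 genes, Rgs2, Rgs4, Gem and Rrad, were at least 2-fold higher by their brightest probe set. None was 2-fold lower. Over all 10133 genes measured in this comparison 1.2% were 2-fold higher and 2.89% 2-fold lower, or 2.24% and 1.09% with all arrays brought to 1 median (median scaling). The median log2 ratio of the 7 genes was 1.08, against -0.24 over all genes.

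**Figure D1:**
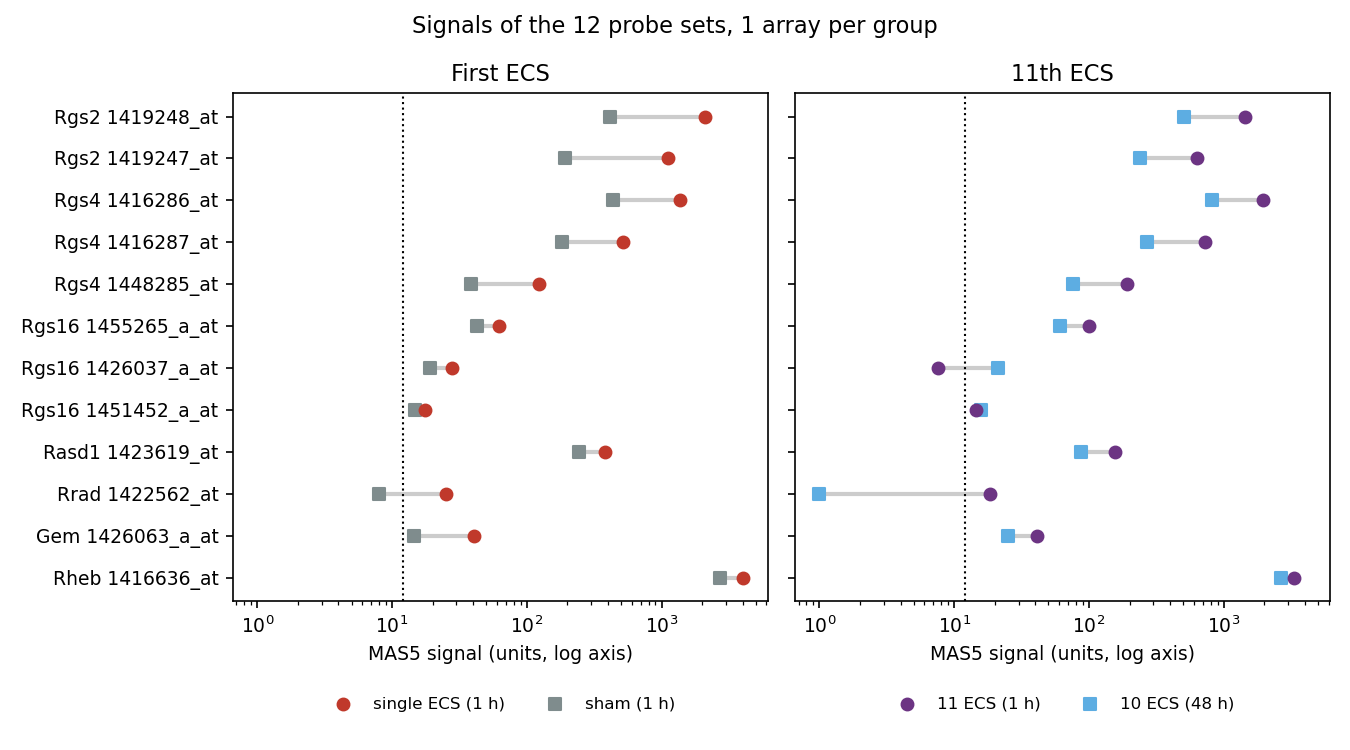
Signals of the 12 probe sets in MAS5 units (log axis), with single ECS and sham on the left, 11 ECS and 10 ECS on the right. Each point is 1 array of pooled RNA and the dotted line is the floor of 12 units. Rgs2 and Rgs4 lie to the right of their partner array in both panels, whereas Rrad reads under the floor in sham and after 10 ECS.

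Among the RGS genes Rgs2 had the largest ratio. Its probe set 1419248_at had 2090 units after a single ECS against 414 in sham (5.04-fold), and 1419247_at had 1120 against 192 units (5.84-fold). Both probe sets thus gave the same picture, with log2 ratios of 2.33 and 2.55, and by the brighter one Rgs2 ranked 28 of 10133 genes from the top. Rgs4 had 1373 units after a single ECS against 435 in sham by 1416286_at (3.16-fold). Its dimmer probe sets had 519 against 183 units (1416287_at, 2.84-fold) and 124 against 38.3 units (1448285_at, 3.24-fold). The 3 log2 ratios of Rgs4 had a mean of 1.62 and an SD of 0.10 between probe sets, and Rgs4 ranked 55 from the top.

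Rgs16 stayed under 2-fold and was dim. The brightest of its 3 probe sets, 1455265_a_at, had 62.3 units after a single ECS against 42.4 in sham (1.47-fold). The others had 28.0 against 19.2 units (1426037_a_at, 1.46-fold) and 17.7 against 14.8 units (1451452_a_at, 1.20-fold), near the floor. On the log2 scale the 3 lay at 0.56, 0.54 and 0.26, the last within 1 SD of 0. Relative to the median of all genes they lay 0.80, 0.78 and 0.50 above, each past 1 SD. By the brightest probe set this was close to the 0.82 of Rheb, given below, but on dimmer signals.

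Of the GTPase genes, 2 passed 2-fold on dim signals. Gem had 40.7 units after a single ECS against 14.6 in sham, 2.79-fold, and Rrad had 25.3 units against 8.0, which is at least 2.11-fold with sham taken at the floor. Both lay under 50 units on all 4 arrays, so their ratios rest on dim signals, and with a floor of 50 neither had a value. Rasd1 had 383 units after a single ECS against 243 in sham (1.58-fold, log2 ratio 0.66). Rheb had 4041 units against 2710 (1.49-fold, log2 ratio 0.58). Relative to the median of all genes, Rasd1 lay 0.90 and Rheb 0.82 above on the log2 scale, each more than 2 of the 0.29 SD.

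For the 11th ECS, the 11 ECS array was set against the 10 ECS array, and neither is part of the first comparison. All 7 genes read higher after the 11th ECS by their brightest probe set, but only Rgs2 and Rgs4 were at least 2-fold higher and none was 2-fold lower. Over all 10046 genes measured here, 1.06% were 2-fold higher and 1.21% 2-fold lower, or 1.72% and 0.902% after median scaling. The median log2 ratio of the 7 genes was 0.73, against -0.11 over all genes.

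Rgs2 had 1437 units after 11 ECS against 509 after 10 ECS by 1419248_at (2.82-fold), and 629 against 240 units by 1419247_at (2.62-fold). Rgs4 had 1950 units after 11 ECS against 813 after 10 ECS by 1416286_at (2.40-fold). By its other probe sets Rgs4 had 723 against 269 units (1416287_at, 2.69-fold) and 191 against 76.3 units (1448285_at, 2.50-fold). The 5 probe sets of Rgs2 and Rgs4 therefore lay in a narrow range, at log2 ratios between 1.26 and 1.50. Rgs2 ranked 43 and Rgs4 65 of 10046 genes from the top.

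The other genes had smaller ratios. Rasd1 had 156 units after 11 ECS against 88.0 after 10 ECS (1.77-fold). Gem had 41.5 against 25.1 units (1.65-fold), and Rrad had 18.3 units against 1.0, at least 1.52-fold with 10 ECS taken at the floor. Rheb had 3337 units after 11 ECS against 2659 after 10 ECS (1.25-fold, log2 ratio 0.33), which was 0.43 above the median of all genes, between 1 and 2 SD. The probe sets of Rgs16 disagreed, with 99.6 against 61.1 units by 1455265_a_at (1.63-fold higher), 7.6 against 21.3 units by 1426037_a_at (at least 1.77-fold lower) and 14.4 against 15.7 units by 1451452_a_at.

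**Figure D2:**
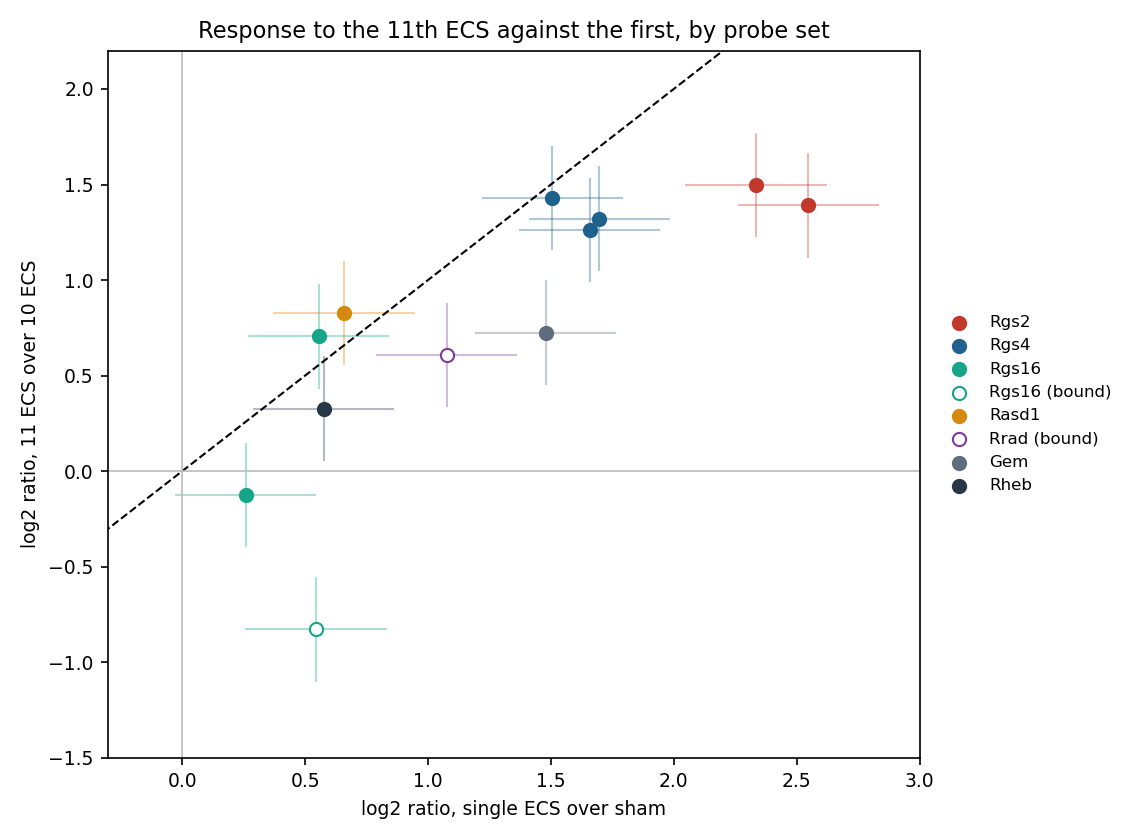
Vertical axis, log2 ratio of 11 ECS over 10 ECS; horizontal axis, log2 ratio of single ECS over sham, each point 1 probe set. Bars are 1 pooled SD between probe sets of a gene in each direction, open points are bounds, and the dashed line marks equal responses. Both Rgs2 probe sets and Gem lie well below the line, at first responses of 2.33, 2.55 and 1.48, Gem on dim signals. As deposited, Rgs4 lies nearer to it.

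Whether the acute response differs after earlier ECS was the question the study put to these arrays. Of the 6 genes above the floor on all 4 arrays, Rgs2, Rgs4, Gem and Rheb had a larger ratio after the first ECS than after the 11th, by their brightest probe sets. Over the 8999 genes above the floor on all arrays, the ratio was larger after the first in 29.6%. That share depends on the scaling, with 54.5% after median scaling, where 5 of the 6 genes had the larger ratio after the first, and 46.1% after quantile normalization, where 4 had it. The difference of responses (log2 ratio of the 11th minus that of the first) was -0.84 and -1.16 for the probe sets of Rgs2, -0.75 for Gem and -0.25 for Rheb. Between probe sets of 1 gene this difference had a pooled SD of 0.35, and its median over all genes was 0.13. Both Rgs2 probe sets and Gem thus lay more than 2 SD below 0. Gem did so on 1 dim probe set, at 14.6 units in sham, and had no value with a floor of 50. The SD is pooled over genes of all signal levels above the floor and may be too small for Gem. Rheb lay within 1 SD of 0 as deposited and after quantile normalization (-0.27), but past 1 SD after median scaling (-0.41). The median over all genes also moved, to -0.03 after median scaling and 0.02 after quantile normalization. Against that median Rheb lay past 1 SD as deposited and after median scaling, but not after quantile normalization.

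For Rgs4 the differences were -0.40, -0.08 and -0.38 in the order 1416286_at, 1416287_at and 1448285_at, so that 2 of 3 lay just past 1 SD. By 1416286_at the difference was -0.56 after median scaling and -0.50 after quantile normalization. Rasd1 had a difference of 0.17 and Rgs16 of 0.15 by 1455265_a_at, both within 1 SD of 0 and near the 0.13 median of all genes. The sign for Rgs16 turned after median scaling and with the median over its probe sets. Rrad was below the floor in sham and after 10 ECS and has no such value.

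The level without a new stimulus was compared between 10 ECS at 48 h and sham. These groups also differ in the number of handling and isoflurane sessions and the time they took. That cannot be told apart from the ECS itself. Rasd1 was the gene at least 2-fold apart, with 88.0 units after 10 ECS against 243 in sham, 2.76-fold lower, and ranked 19 of 10202 genes from the bottom. None of the 6 measured genes was 2-fold higher and Rasd1 alone was 2-fold lower, against 0.716% and 1.22% of all genes (1.05% and 0.845% after median scaling). Rgs4 lay just under the limit, with 813 units after 10 ECS against 435 in sham by 1416286_at (1.87-fold), 269 against 183 (1416287_at, 1.47-fold) and 76.3 against 38.3 (1448285_at, 1.99-fold). All 3 probe sets of Rgs4 read higher after 10 ECS, with a mean log2 ratio of 0.82 and an SD of 0.23 between them. After median scaling or quantile normalization Rgs4 was past 2-fold by 1416286_at.

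Gem had 25.1 units after 10 ECS against 14.6 in sham (1.72-fold), on dim signals. Rgs16 had 61.1 units against 42.4 by 1455265_a_at (1.44-fold), and log2 ratios of 0.15 and 0.09 by its other probe sets. Rgs2 had log2 ratios of 0.30 and 0.32, about 1 SD from 0. Rheb had 2659 units after 10 ECS against 2710 in sham, a log2 ratio of -0.03, and Rrad was below the floor on both arrays.

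The 2 arrays taken 1 h after an ECS were then compared, 11 ECS against single ECS. They share their arrays with the comparisons above and are given as levels. Here too the number of handling and isoflurane sessions differs along with the number of ECS. Rasd1 was again the gene at least 2-fold apart, with 156 units after 11 ECS against 383 after a single ECS (2.45-fold lower, rank 20 of 9971 from the bottom). None of the 7 genes was 2-fold higher and 1 was 2-fold lower by the brightest probe set, against 0.832% and 0.782% of all genes. The Rasd1 signal after the 11th ECS was thus below that in sham, 156 against 243 units, although it was 1.77-fold higher than after 10 ECS.

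Rgs4 was higher after 11 ECS than after a single ECS by all 3 probe sets, 1.42-fold, 1.39-fold and 1.54-fold, with a mean log2 ratio of 0.53 and an SD of 0.07. Rgs2 was lower, 1.45-fold by 1419248_at and 1.78-fold by 1419247_at. Gem had 41.5 units after 11 ECS against 40.7 after a single ECS, which cannot be distinguished. Rheb was 1.21-fold lower and Rrad 1.38-fold lower, the second on signals of 18.3 and 25.3 units. For Rgs16 the probe sets pointed both ways, 1.60-fold higher by 1455265_a_at and at least 2.33-fold lower by 1426037_a_at.

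**Figure D3:**
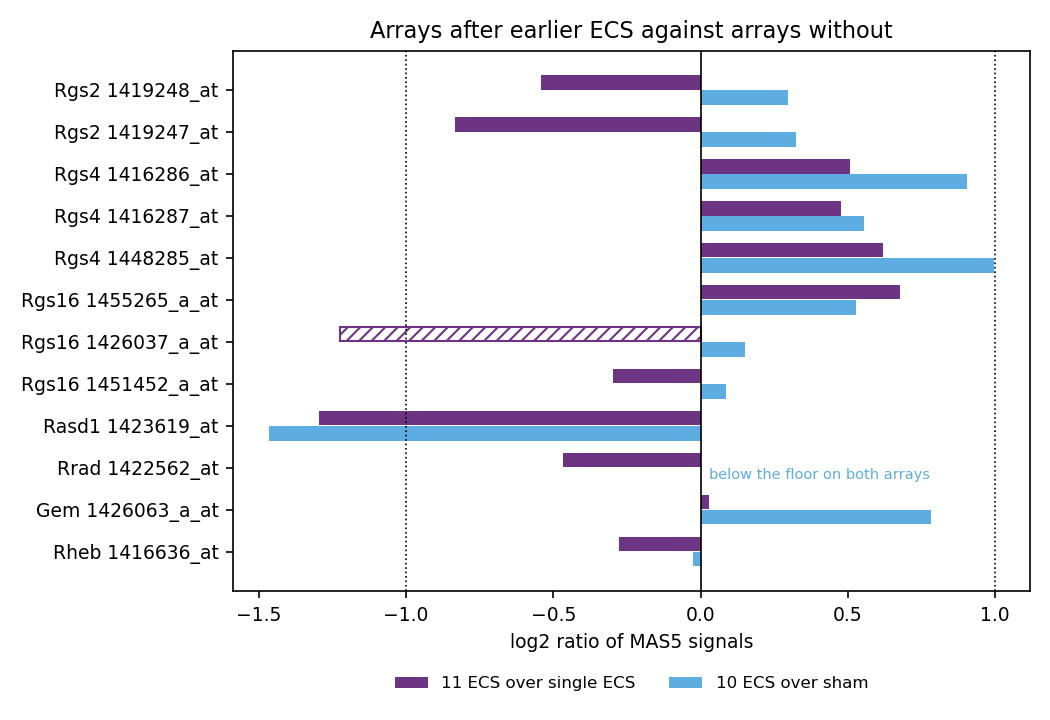
Log2 ratios of the arrays after earlier ECS over the arrays without, 11 ECS over single ECS (upper bar) and 10 ECS over sham (lower bar), for each probe set. Dotted lines mark 2-fold, the hatched bar is a bound, and each bar compares 1 array with 1 array. Rasd1 lies at -1.30 and -1.46, the 3 probe sets of Rgs4 lie above 0 in both, and those of Rgs2 point in opposite directions.

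The order of the 4 arrays differed between the genes. Both probe sets of Rgs2 read highest after a single ECS, followed by 11 ECS, 10 ECS and sham, the last pair about 1 SD apart. All 3 probe sets of Rgs4 read highest after 11 ECS, followed by a single ECS, 10 ECS and sham. Rasd1 was highest after a single ECS, then in sham, after 11 ECS and after 10 ECS. Rheb was highest after a single ECS, then after 11 ECS, this pair about 1 SD apart, with 10 ECS and sham not distinguishable. For Gem 11 ECS and single ECS were not distinguishable, above 10 ECS and then sham.

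Some markers of cell types differed between the same arrays as Rasd1 and Rgs4. The summed signal of the 6 GC markers was 3877 units after 10 ECS against 6572 in sham, and 3533 after 11 ECS against 5642 after a single ECS. The 6 markers did not move together. Calb1, the calbindin gene, was at least 2-fold lower in both comparisons, with 1507 units after 10 ECS against 3234 in sham and 1304 after 11 ECS against 2747 after a single ECS. Tdo2 was 1.83-fold and 2.29-fold lower in these comparisons and Dsp 1.71-fold and 1.93-fold lower. Stxbp6 read higher in both, with 215 units after 10 ECS against 191 in sham and 264 after 11 ECS against 210 after a single ECS. Prox1 and Neurod1, transcription factor genes of GCs, had log2 ratios of -0.26 and -0.20 for 10 ECS over sham and of -0.15 and -0.07 for 11 ECS over single ECS. Summed signals of interneuron markers lay between 8286 and 8814 units over the 4 arrays, astrocyte markers between 6619 and 7405, oligodendrocyte markers between 6643 and 7830, microglia markers between 2256 and 2444, endothelial and mural markers between 1780 and 1885, and pyramidal cell markers between 2794 and 3277. Within these sums, the interneuron marker Npy, a neuropeptide gene, had 1320 units after 10 ECS against 586 in sham (2.25-fold) and 1350 after 11 ECS against 608 after a single ECS (2.22-fold). The astrocyte marker Gfap, an intermediate filament gene, had 114 units after 10 ECS against 49.3 in sham (2.31-fold) and 135 after 11 ECS against 45.6 after a single ECS (2.96-fold), and its second probe set was 1.53-fold and 2.49-fold higher. No other marker of these 6 cell types passed 2-fold in any of the 4 comparisons. The 4 choroid plexus markers on the array, 1 of them below the floor throughout, summed to 265 units after a single ECS, 117 after 11 ECS, 147 after 10 ECS and 157 in sham. Among them Ttr, the transthyretin gene, had 216 units after a single ECS against 67.2 in sham (3.21-fold, and 3.14-fold and 3.62-fold by its other probe sets), and 76.9 after 11 ECS against 103 after 10 ECS. Kl went the other way, at 38.4 units (single ECS) and 26.6 units (10 ECS, 2.79-fold lower) against 74.3 in sham. The part of these markers in the ratios of the 7 genes was not tested.

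Related genes were taken from 6 lists of 101 genes on the array, which cover other members of both families and partners of their proteins. Of the 97 measured after a single ECS, 1 was at least 2-fold higher and 2 were at least 2-fold lower. Over all genes the shares were 1.2% and 2.89%, so these counts do not set the lists apart. None of the 14 measured other RGS genes passed 2-fold in any of the 4 comparisons (15 were measured for 10 ECS over sham). Their median log2 ratio was -0.26 after a single ECS, close to the -0.24 of all genes. The gene farthest from 0 was Axin2, a Wnt pathway scaffold with an RGS domain, at 72.3 units after a single ECS against 131 in sham.

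**Figure D4:**
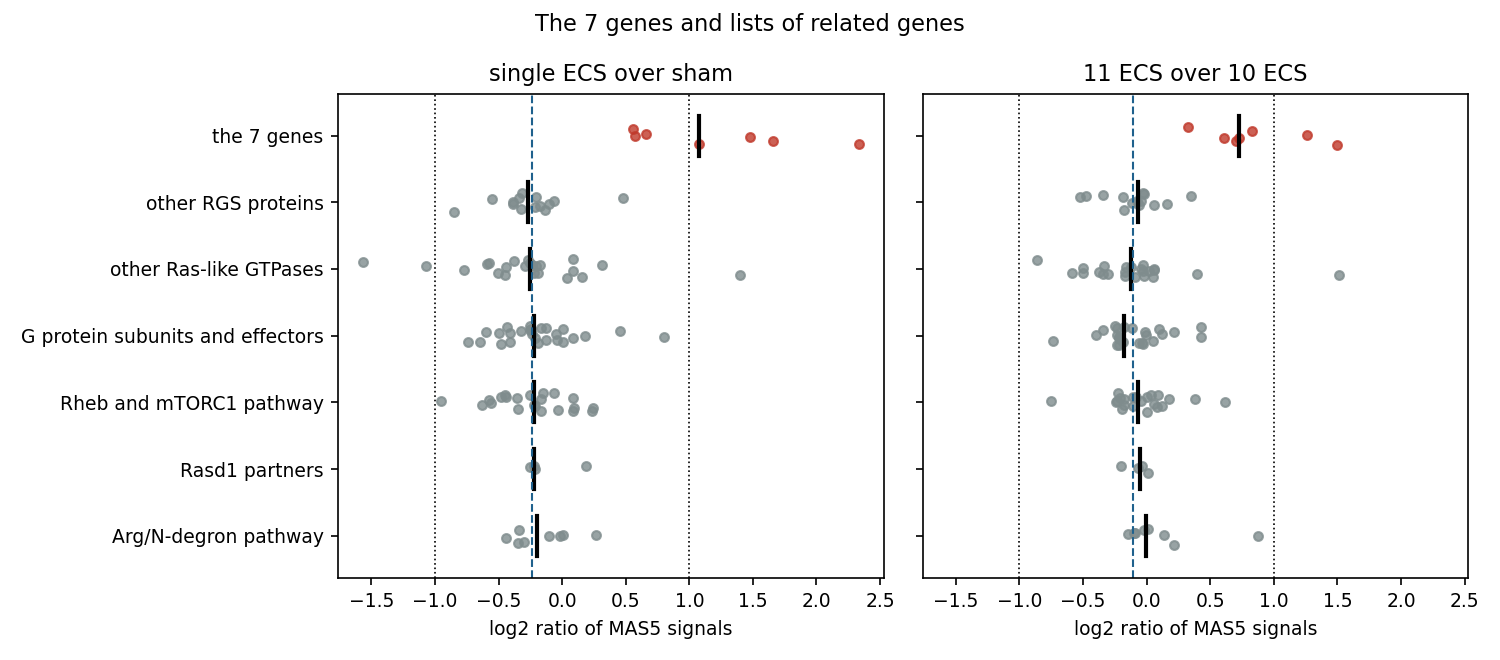
Log2 ratios of the 7 genes (red) and of genes in 6 related lists (grey) for single ECS over sham (left) and 11 ECS over 10 ECS (right), each point 1 gene by its brightest probe set. Black bars are list medians, the dashed line the median of all genes, and dotted lines 2-fold. The 7 genes have medians of 1.08 and 0.73, and those of the other RGS genes are -0.26 and -0.07. Genes and lists were chosen with earlier results of these data known, so this contrast is a description and not a test.

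Among 23 other Ras-like GTPases, Rasl11b was the 1 gene at least 2-fold higher after both stimuli, with 631 units after a single ECS against 239 in sham (2.64-fold), and 588 after 11 ECS against 206 after 10 ECS (2.86-fold). Rasl10a went the other way after a single ECS, with 198 units against 585 in sham (2.96-fold lower), and had 433 units after 11 ECS against 786 after 10 ECS (1.82-fold lower). Rasl10a was also 2.19-fold higher after 11 ECS than after a single ECS. Rasl12, named after its values were seen since it was dim, had 22.1 units after a single ECS against 46.5 in sham. Rasd2, the closest relative of Rasd1, was lower on both arrays set against sham, at 297 units (single ECS) and 295 units (10 ECS) against 422.

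Few of the targets and partners of the 7 proteins passed 2-fold, as was so for all genes. For a single ECS over sham, 1.2% of all genes were 2-fold higher and 2.89% 2-fold lower. Of the G protein subunits and effectors none of 26 measured genes passed 2-fold after a single ECS, and Kcnj9, a subunit of G protein-gated potassium channels, was lowest among those named, with 77.6 units against 130 in sham. Among the subunits of calcium channels, on which RGK proteins act, Cacna2d1 had 92.5 units after a single ECS against 157 in sham, and Cacna1h had 273 units after 11 ECS against 493 after 10 ECS. In the Rheb and mTORC1 list none of 22 genes passed 2-fold. Sesn1, a stress-induced inhibitor of this pathway, had 511 units after a single ECS against 990 in sham, and 568 after 11 ECS against 959 after 10 ECS. Tsc1, a subunit of the complex that switches Rheb off, had 240 units after a single ECS against 357 in sham.

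Of 4 Rasd1 partners none passed 2-fold, and Nos1, which encodes neuronal nitric oxide synthase, had 170 units after 10 ECS against 247 in sham. Rgs4 and Rgs16 proteins are degraded through the N-degron pathway. Among its 8 genes only Ubr2, a ubiquitin ligase gene, passed 2-fold, in 10 ECS over sham, at 8.9 against 25.4 units and thus at least 2.12-fold lower on a dim probe set, named after its values were seen.

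Genes with the most similar pattern were found by the Euclidean distance over the 4 log2 signals, each gene centred on its own mean, among genes with a mean of at least 48 units and no array under the floor. For Rgs2 these were Plk2, a kinase gene of synaptic scaling, at a distance of 0.07, Grasp at 0.22 and Spry2, an inhibitor of receptor tyrosine kinase signalling, at 0.25. Plk2 had 3729 units after a single ECS against 711 in sham, and 2403 after 11 ECS against 898 after 10 ECS. For Rgs4 they were Sox11 (0.47), a transcription factor gene of immature neurons, Arpp21 (0.60) and the neurotrophin gene Bdnf (0.68). For Rasd1 they were Bhlhe40 (0.39), a clock-related repressor gene, Kitl (0.53) and Alg13 (0.68). Bhlhe40 had 326 units after 10 ECS against 662 in sham, and 542 after 11 ECS against 1060 after a single ECS.

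For Rheb the nearest were Cry2 (0.07), Dnajb4 (0.07) and Ptbp1 (0.09), and for Rgs16 Sstr2 (0.16), Zfp703 (0.16) and Niban2 (0.22). For Gem they were Sult2b1 (0.45), Rgs4 (0.50) and Atg101 (0.51). None of these came as close as those of Rgs2 or Rheb, as was also so for Rgs4 and Rasd1. These distances are over 4 arrays only and describe them.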

How the data were processed

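The deposited values are MAS5 signal intensity values, linear and with 1 value for each probe set, which the authors computed with Microarray Suite 5.0 from Affymetrix Mouse Genome 430A 2.0 arrays after amplifying 100 ng of RNA pooled from 3 mice per group. For scaling, no setting was given in the sources used here. Detection and change calls were not used here.

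From these, 64 control probe sets were left out, and 20380 of 22626 probe sets had a single symbol in the array's annotation. Among probe sets of 1 gene, that with the highest mean signal stood for it, and 2-fold is a size limit, not a test. No p-value was computed, since 1 array per group leaves no residual spread. The number of arrays limits the precision. Alternatives were a floor of 50 units, no floor, median scaling, quantile normalization and the median over probe sets. All probe sets of the 7 genes are named. In each related list, genes were named from those past 2-fold in any comparison or among the 2 farthest from 0 in single ECS over sham or in 10 ECS over sham, with at least 48 units on the brighter array. Some related genes are not reported here. The genes and lists were chosen with earlier results of these data known. The ratio step was checked on simulated arrays. Python 3.11.15, pandas 2.3.3, numpy 2.4.6 and scipy 1.17.1 were used.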

Additional observations from a re-analysis of the deposited data

Results flagged for a closer look

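Some probe sets moved in opposite directions in 2 groups under the same contrast. Each such difference rests on 4 arrays and was not tested. For Rgs2, the array after earlier ECS was lower with a new stimulus and higher without one, with log2 ratios of -0.54 for 11 ECS over single ECS and 0.30 for 10 ECS over sham by 1419248_at (difference -0.84), and of -0.83 and 0.32 by 1419247_at (difference -1.16). Both probe sets of Rgs2 gave this. These differences come from the same 4 signals as the differences of responses above and are the same numbers.

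For Rgs16, 1426037_a_at was lower after the 11th ECS (log2 ratio at most -0.83) and higher after the first (0.54), and lower in 11 ECS over single ECS (at most -1.22) but higher in 10 ECS over sham (0.15). The difference was -1.37 or lower in both views, with the 11 ECS array below the floor. The dim Rgs16 probe set 1451452_a_at had log2 ratios of -0.12 for the 11th and 0.26 for the first ECS, and -0.30 for 11 ECS over single ECS and 0.09 for 10 ECS over sham, a difference of -0.38. The brightest probe set of Rgs16 did not move in opposite directions in either view.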

How the results depend on the processing

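No paired analysis was possible because each group has 1 array. With a floor of 50 units, 2 of 5 measured genes, Rgs2 and Rgs4, passed 2-fold after a single ECS, in place of 4 of 7, since Gem and Rrad were below that floor. For 10 ECS over sham, the genes at least 2-fold apart were 2 in place of 1 with no floor (Rasd1 and Rrad), and also 2 after median scaling and after quantile normalization (Rasd1 and Rgs4 in each). With no floor Rrad was also past 2-fold after the 11th ECS, for 3 genes in place of 2. The other counts stayed within 1.5 times. Rasd1 was past 2-fold in both comparisons with earlier ECS in every alternative run, and Rgs2 and Rgs4 were so after both stimuli. Of 173 log2 ratios of single probe sets under these alternatives, 153 moved by less than the pooled SD between probe sets, 15 moved up and 5 down, and 0 ratios past 2-fold changed sign. Of the 15, 13 came with median scaling, which moved the median log2 ratio of all genes from -0.24 to 0.05 for single ECS over sham. For that comparison the genes 2-fold higher and lower were 122 and 293 as deposited, 231 and 112 after median scaling, and 190 and 102 after quantile normalization. For 11 ECS over 10 ECS they were 106 and 122, 177 and 93, and 146 and 78, and for 10 ECS over sham 73 and 124, 108 and 87, and 89 and 78. For 11 ECS over single ECS they were 83 and 78, 121 and 123, and 92 and 92. With no floor, 688 and 1203 genes passed after a single ECS, 701 and 938 after the 11th, 695 and 867 in 10 ECS over sham and 829 and 842 in 11 ECS over single ECS. A floor of 50 units left 87 and 81, 59 and 12, 15 and 28, and 19 and 31 genes in the same order. The dim genes Gem, Rrad and 2 probe sets of Rgs16 are limited by low signal, with 41.5 units or less, as well as by the lack of replicates.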
